A study of Mus musculus with 9 samples.

Results

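Cells of the mouse cauda epididymis that carried the transcripts of principal cells were examined in single-cell RNA-seq data from caput, corpus and cauda of 3 pools of untreated C57BL/6 mice. One pool of 5 mice was 42 days old (P42), when the first wave of sperm arrives, and 2 pools of 5 mice each were 56 days old (P56 replicates 1 and 2). Each pool gave 1 library per segment, so that P42 had no replicate library. Barcodes were kept with 300 to 4000 detected genes, at most 20000 unique molecular identifiers (UMIs, each counting 1 captured mRNA molecule once) and under 50% mitochondrial UMIs. A cell was then a member when at most 2 of 15 genes of other cell types were detected (Krt5, Krt14, Foxi1, Atp6v1g3, Stap1, Pecam1, Cdh5, Lum, C1qa, C1qc, Cd3g, Nkg7, Prm1, Mki67, Foxj1), globins made up under 20% of its UMIs, and at least 2 of Crisp1, Spink8, Adam7, Cuzd1 and Wfdc10 were detected. The rule took 9589 of the 14322 cauda cells that passed quality control, out of 44869 barcodes in all 9 libraries. There were 2778 members at P42 (60.5% of the cells kept, exact Clopper-Pearson 95% interval 59.1 to 61.9%), 3522 in P56 replicate 1 (72.5%, 71.2 to 73.8%) and 3289 in P56 replicate 2 (67.5%, 66.1 to 68.8%). These intervals cover counting error only. The same rule took 9981 cells of the corpus and 7259 of the caput.

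Principal cells are the tall secretory and absorptive cells that make up most of the epididymal epithelium. They secrete beta-defensins, protease inhibitors, lipocalins and lipid-anchored proteins that coat maturing sperm, and they resorb and modify the luminal fluid, with a gene repertoire that changes from segment to segment. The cauda is the last segment, where mature sperm are stored until ejaculation.

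The label was borne out only in part. The 5 principal-cell genes of the rule removed 44 of 9633 cells, all of them at P42, because their mRNAs were found in nearly every barcode of the cauda. In barcodes outside the rule that carried at least 4 macrophage or T cell genes (909, 95 and 168 barcodes at P42, P56 replicate 1 and P56 replicate 2), Crisp1 was detected in 96.9%, 100% and 100%, against 96.5%, 100% and 100% of the members. When each library was clustered by itself, 4392 members (45.8%) lay outside clusters that carried the markers of another cell type, erythrocytes not among the lists used, and these are called the narrower set below. It held 643 members at P42 (23.1%), 1819 in P56 replicate 1 (51.6%) and 1930 in P56 replicate 2 (58.7%). At P42, 824 of the members left out lay in clusters with fibroblast markers, and 776 lay in a cluster that passed the limit of 0.5 on the log2 scale only narrowly, with a median ratio of 0.51 for the clear cell list, and was led by mast cell genes (Cma1, Cpa3) and globins. At P56 clusters with basal cell markers took the largest number (1238 cells). Of these a cluster of 405 cells of P56 replicate 1 and one of 437 cells of P56 replicate 2 passed the limit of the ratio narrowly (median ratios of 0.54 and 0.61). Both also had Krt14 and Krt15 of the basal list among their leading genes, which left them out whatever the ratio. The narrower set kept a cluster of 457 cells of P56 replicate 1 and one of 31 cells of P56 replicate 2 in which the erythrocyte list had a median log2 ratio of 2.66 and 7.98. Erythrocyte markers summed to 6183, 281 and 784 UMIs per 1000000 UMIs of the sum (CPM) in the members and to 4562, 342 and 1178 CPM in the narrower set. The corresponding sets held 5963 corpus and 4874 caput cells. The cells of the rule are therefore described as that, with the narrower set, which was chosen after seeing the data, beside them where it changed a result.

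Fibroblast transcripts set the P42 library apart. The 8 fibroblast markers summed to 48330, 1674 and 927 CPM in the members at P42, P56 replicate 1 and P56 replicate 2, and to 12951, 381 and 351 CPM in the narrower set. The leukocyte barcodes outside the rule held 34918, 2896 and 1291 CPM of the same markers, so the P42 excess was not confined to the members. The 8 macrophage markers summed to 4431, 124 and 229 CPM in the members and to 1092, 49.1 and 115 CPM in the narrower set, and none of the markers of either list was at 0. Basal cell markers went the other way, with 64.9, 207 and 178 CPM in the members and 53.7, 65.0 and 77.8 CPM in the narrower set. The 10 general principal cell markers summed to 5131, 10268 and 12830 CPM in the members and to 9433, 11597 and 13786 CPM in the narrower set. The members had a median of 2305.5, 6350 and 7439 UMIs in the same order. All cauda comparisons between ages thus combine a difference in the cells taken, or in mRNA found across barcodes, with any difference within principal cells. In the sums fewer cells of a type and less RNA per cell cannot be told apart.

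**Figure D1:**
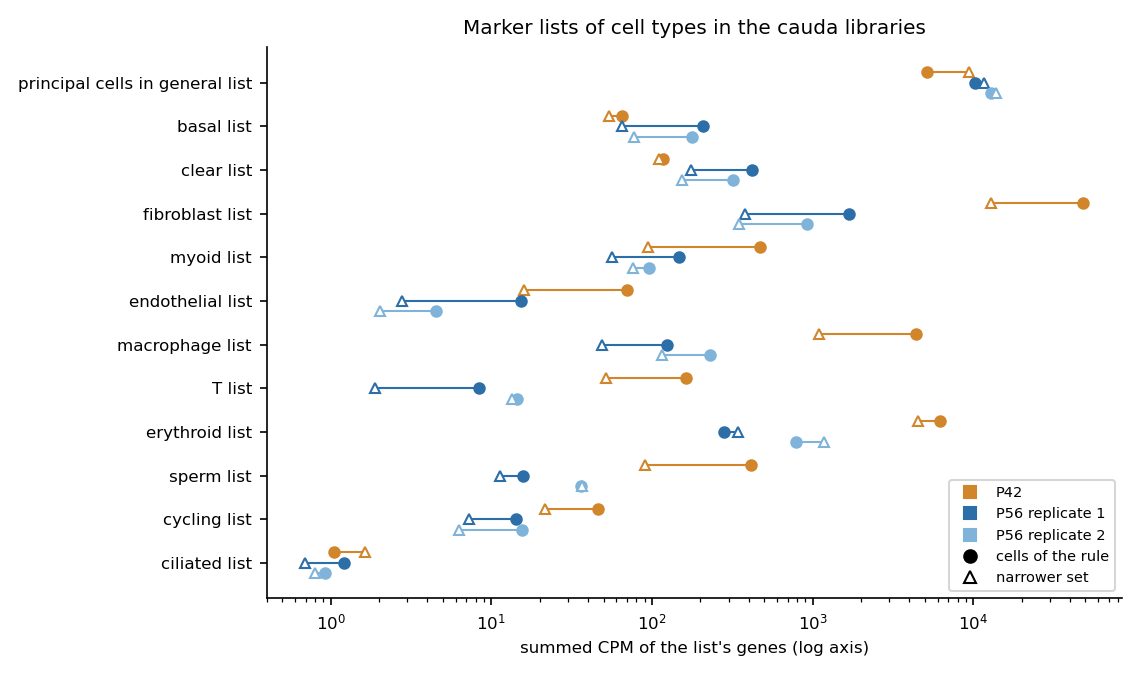
Summed level of the marker lists (CPM, log axis) in the cells of the rule and in the narrower set of the 3 cauda libraries. At P42 fibroblast markers reached 48330 CPM in the cells of the rule, against 1674 and 927 CPM at P56, and they stayed highest at P42 in the narrower set.

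The limits of the rule fell within a continuum. At P42, 39 cells had 1 of the 5 principal-cell genes and 155 had 2, with 68.6 and 70.7 CPM of Defb9 and 15420 and 13753 CPM of Col1a1 (type I collagen), whereas the 1135 cells with all 5 had 855 CPM of Defb9 and 7385 CPM of Col1a1. At P56 no cell had fewer than 3. Of the excluded genes, 2 were detected in 1187, 1226 and 1146 members, and 3 were detected in 898, 880 and 890 cells just outside. In P56 replicate 1 these cells held 1195 CPM of Defb9 inside and 1018 CPM outside the limit. Between the cauda libraries the members shared 6, 3 and 0 barcodes. Scrublet called 3 of 42087 cells as doublets (0.00713%), so the caller had not worked, and doublets were left in.

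The genes that mark these cells were Spink14 (a Kazal-type serine protease inhibitor), Smpx (a small muscle-type protein of the cytoskeleton), Defb9 (a beta-defensin) and Ptgds (lipocalin-type prostaglandin D synthase). They were picked with these data in view, and their segmental levels are given without a test. Spink14 reached 7.95, 326 and 322 CPM in the cauda members at P42, P56 replicate 1 and P56 replicate 2, against 0, 0.0487 and 0.435 CPM in the corpus and 0.0895, 0 and 0.346 CPM in the caput. It was thus nearly confined to the cauda, and in the cauda nearly to P56. Smpx reached 84.1, 210 and 292 CPM in the cauda, 3.92, 2.05 and 11.01 CPM in the corpus and at most 1.04 CPM in the caput. Defb9 reached 494, 1399 and 1237 CPM in the cauda, 280, 249 and 352 CPM in the corpus and 3.13 to 6.35 CPM in the caput. Ptgds was the least restricted, with 1563, 10647 and 11509 CPM in the cauda, 1842, 3652 and 5741 CPM in the corpus and 532 to 647 CPM in the caput. At P42 its level was lower in the cauda than in the corpus, but not in the narrower set, where it was 4241 against 2653 CPM.

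In the narrower set the P42 levels of Smpx, Defb9 and Ptgds stood closer to those at P56. Defb9 measured 1427, 1603 and 1366 CPM, Smpx 222, 241 and 319 CPM, Ptgds 4241, 12571 and 12693 CPM, and Spink14 23.2, 367 and 349 CPM. The 4 genes were also found in leukocyte barcodes, with 3.84, 280 and 320 CPM for Spink14 and 839, 7787 and 8457 CPM for Ptgds. The share of cells with a Spink14 UMI was 4.67%, 57.4% and 54.0% in the narrower set (median 2197, 6975 and 7639.5 UMIs) and 1.43%, 65.3% and 61.9% in the leukocyte barcodes (median 5185, 6478 and 8925 UMIs). At P56 the shares in the narrower set were below those in leukocytes, so a Spink14 UMI in a single cell was not read as expression by that cell. After thinning to 1000 UMIs per cell, 0.741%, 20.2% and 20.2% of the members held a Spink14 UMI, with 350, 4 and 0 members too shallow to be included, compared with 1.66%, 56.4% and 53.3% before thinning.

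**Figure D2:**
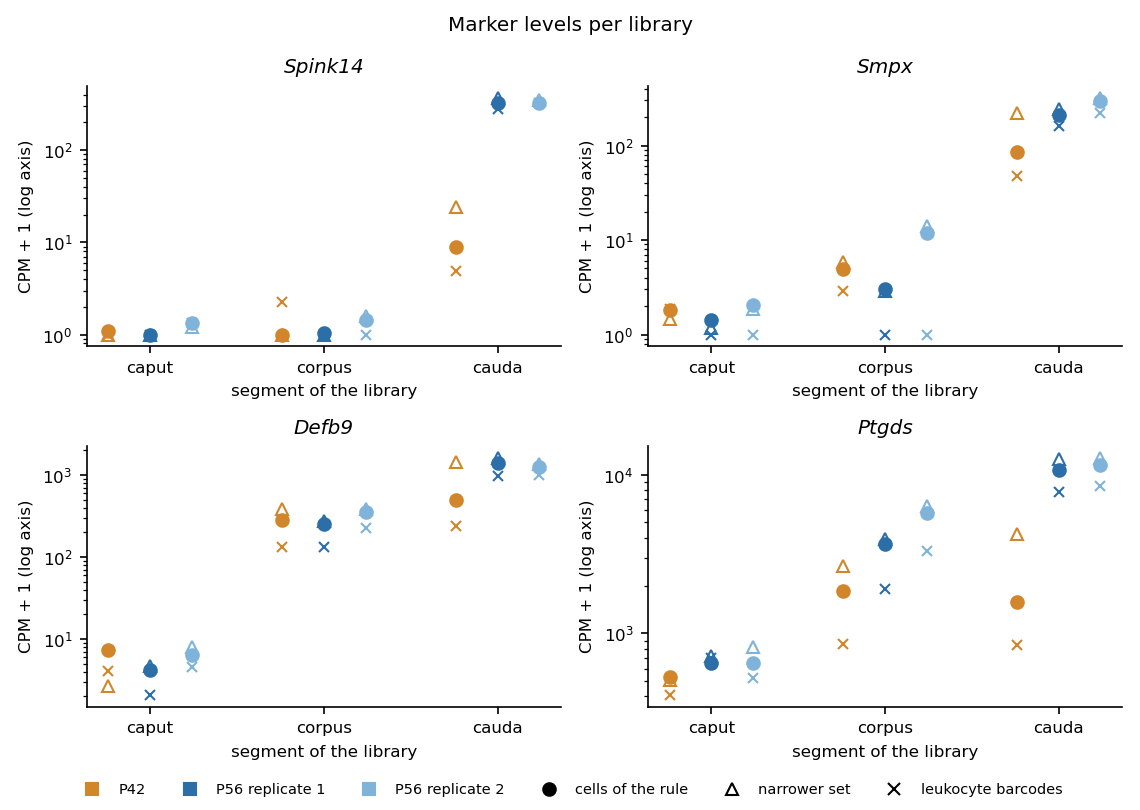
Levels of Spink14, Smpx, Defb9 and Ptgds (CPM + 1, log axis) in the cells of the rule, the narrower set and the leukocyte barcodes of each library. Spink14 stayed at or below 0.435 CPM in the corpus and caput members and reached 326 and 322 CPM in the cauda at P56.

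The DNA just upstream of the start sites of the marker genes is shown because these genes share the high cauda level. The 250 bases were taken from RefSeq (GRCm38.p6) for Ptgds (chr2:25469750-25469999, minus strand, inside the span of the gene because another annotated start lies further upstream), Defb9 (chr8:21885435-21885684, minus strand) and Smpx (chrX:157698723-157698972, plus strand), and for Pate6 (chr9:35790113-35790362, minus strand), whose cauda level is given below. The window of Spink14 is not shown. Capitals mark the 7-letter AP-1 motif TGACTCA, read on either strand.
Ptgds: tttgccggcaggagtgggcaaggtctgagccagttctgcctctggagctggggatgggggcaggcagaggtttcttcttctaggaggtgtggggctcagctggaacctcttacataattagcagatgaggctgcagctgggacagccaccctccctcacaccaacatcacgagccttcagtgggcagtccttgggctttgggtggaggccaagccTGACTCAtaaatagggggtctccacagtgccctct
Defb9: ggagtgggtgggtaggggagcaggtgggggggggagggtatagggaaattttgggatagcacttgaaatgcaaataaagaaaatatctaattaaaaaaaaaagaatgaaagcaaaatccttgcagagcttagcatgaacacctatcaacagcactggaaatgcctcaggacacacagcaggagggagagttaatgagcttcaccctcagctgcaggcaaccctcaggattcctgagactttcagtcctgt
Smpx: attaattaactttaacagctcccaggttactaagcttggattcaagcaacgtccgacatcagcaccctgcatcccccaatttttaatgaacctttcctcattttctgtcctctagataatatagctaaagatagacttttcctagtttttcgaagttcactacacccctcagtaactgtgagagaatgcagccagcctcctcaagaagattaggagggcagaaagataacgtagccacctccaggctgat
Pate6: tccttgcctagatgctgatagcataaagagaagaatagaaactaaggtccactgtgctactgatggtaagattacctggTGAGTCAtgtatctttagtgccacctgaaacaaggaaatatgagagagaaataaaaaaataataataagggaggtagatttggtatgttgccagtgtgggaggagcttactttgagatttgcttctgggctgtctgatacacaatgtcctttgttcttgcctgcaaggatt
The motif was found 35 bases upstream of the Ptgds start and 171 bases upstream of the Pate6 start, and not in the windows of Defb9 and Smpx. It was present in 1466 of 32851 such promoters of the genome (4.46%). A match describes the letters and is not a measured site.

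Many of the most abundant mRNAs of the narrower set encoded secreted and sperm-coating proteins, beside widely expressed ones such as Itm2b (7482, 12011 and 13498 CPM). Cd52, a lipid-anchored glycopeptide transferred to sperm, had 28620, 50556 and 48350 CPM at P42, P56 replicate 1 and P56 replicate 2. Spink8 (12430, 31084 and 30344 CPM) and Crisp1 (12951, 28417 and 31082 CPM), which are genes of the rule, followed. Crisp1 encodes a cysteine-rich secretory protein that binds sperm. Wfdc15b, a WAP domain inhibitor, had 8206, 13937 and 13986 CPM, and Gpx3, a secreted glutathione peroxidase, had 7916, 9294 and 11194 CPM. Among the beta-defensins, Defb28, Defb2 and Defb11 were the most abundant, with 11727, 10594 and 5955 CPM in P56 replicate 1. The P42 library held the lowest level of each of these genes. Leukocyte barcodes also held 5816, 32345 and 34069 CPM of Cd52.

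Cells of the rule in the cauda were compared with those in the corpus within the 3 pools (edgeR's quasi-likelihood F test on UMIs summed per library, blocked by pool, Benjamini-Hochberg adjustment over 17139 genes). A gene counted as called when its adjusted p was under 0.05 and its change reached 1 or more on the log2 scale in either direction. The comparison called 1516 genes (8.85%), of which 506 (2.95%) were higher and 1010 (5.89%) were lower in the cauda. In the narrower set 1904 of 14991 genes (12.7%) were called, 890 higher (5.94%) and 1014 lower (6.76%), and 1108 were called in both sets, 73.1% of the former and 58.2% of the latter. Without P56 replicate 1 or P56 replicate 2 only 19 or 58 genes were called, and without P42 3091. The size of the list thus varied with the pools used, and the cause was not tested. Fibroblast markers moved with this comparison, with 9319, 818 and 609 CPM in the corpus members against the cauda levels above, and in the narrower set 1191, 155 and 166 CPM in the corpus. Clear cell markers summed to 607, 669 and 721 CPM in the corpus members and 116, 418 and 321 CPM in the cauda members, and sperm markers to 975, 405 and 322 CPM and 411, 15.8 and 36.4 CPM. Basal cell markers had 149, 74.3 and 82.7 CPM in the corpus members, so that they were lower in the cauda at P42 and higher there at P56. The part of these cells in each result was not tested.

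Pate6, of a family of small secreted proteins that bind sperm, had 359, 1631 and 1924 CPM in the cauda and 35.8, 45.0 and 39.7 CPM in the corpus, a log2 fold change of 4.98 ± 0.61 (SE, n = 3 pools, edgeR adjusted p = 0.00588). Every cauda library exceeded every corpus library, with the smallest excess at P42. Serpine2, a serine protease inhibitor of the serpin family, had 508, 878 and 1036 CPM against 80.5, 18.2 and 29.5 CPM (4.80 ± 0.70, edgeR adjusted p = 0.00957). Spink5, a multidomain Kazal inhibitor, had 190, 1046 and 1215 CPM against 36.8, 71.5 and 86.6 CPM (3.56 ± 0.47, edgeR adjusted p = 0.00767). None of these ranges overlapped between the segments, which follows in part from naming genes that moved the same way in every pool.

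Id1, Id2 and Id3, which inhibit basic helix-loop-helix factors, were named for the size of their change and not as a list of their own. Id1 is also counted below in the list of immediate early and heat shock genes. Id1 had 171, 247 and 266 CPM in the cauda and 17.5 to 27.5 CPM in the corpus (log2 fold change 3.58 ± 0.65), Id3 had 534 to 782 CPM against 58.5 to 150 CPM (2.83 ± 0.43) and Id2 had 755 to 1041 CPM against 126 to 349 CPM (2.32 ± 0.29), with edgeR adjusted p of 0.0173, 0.0106 and 0.00595. Higher levels were also called for Inmt (an indolethylamine methyltransferase, 3.03 ± 0.26), Hacd4 (a dehydratase of very long fatty acid synthesis, 2.65 ± 0.58) and Ly6a (a lipid-anchored antigen, 2.13 ± 0.22). Each of these 6 genes was also called in the narrower set, with log2 fold changes of 3.76, 3.09, 2.57, 3.73, 2.88 and 2.77.

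Retinoid and prostaglandin genes were called in 1 direction. Of 23 tested, 9 were higher, none was lower and 14 were not called, with a median log2 fold change of 1.12 against -0.01 over all genes tested, of which 2.95% were higher and 5.89% lower. Of the same list 12 of 21 were higher in the narrower set, where 5.94% of all genes were higher. Ptgs2, the inducible cyclooxygenase, had 42.9, 41.1 and 61.6 CPM against 13.1, 1.27 and 2.61 CPM (3.96 ± 0.68), and Ptgr1, a prostaglandin reductase, had 27.1, 10.9 and 11.3 CPM against 8.48, 1.70 and 0.531 CPM (2.75 ± 0.51). Crabp2, which carries retinoic acid to its receptors, had 24.6, 103 and 123 CPM against 12.9, 13.8 and 19.0 CPM (2.37 ± 0.48). The edgeR adjusted p of these 3 genes were 0.0152, 0.0186 and 0.0241. The receptors Rara, Rarg and Rxra were also called higher.

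Among the genes called lower in the cauda, Spint4, a Kunitz inhibitor, had 2455, 4893 and 1803 CPM in the corpus and 8.48, 4.74 and 3.01 CPM in the cauda (log2 fold change -9.03 ± 0.77, edgeR adjusted p = 0.00209). The beta-defensins Defb23 (-8.52 ± 0.64), Defb22 (-7.71 ± 1.3), Defb30 (-6.96 ± 0.65) and Defb29 (-6.73 ± 0.42), the epididymal protein Epp13 (-8.23 ± 0.72), Spint5 (-8.15 ± 0.94), the retinoic acid-binding lipocalin Lcn5 (-7.34 ± 0.76), BC048679 (-7.05 ± 1.1) and the membrane carbonic anhydrase Car4 (-6.24 ± 1.0) followed, with edgeR adjusted p from 0.00148 to 0.0134. Their levels in the cauda lay under 100 CPM in every library. P56 replicate 1 held the highest cauda level of BC048679 (95.9 CPM, against 14.1 and 4.15 CPM) and of Defb22 (37.1 CPM, against 4.40 and 1.98 CPM).

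**Figure D3:**
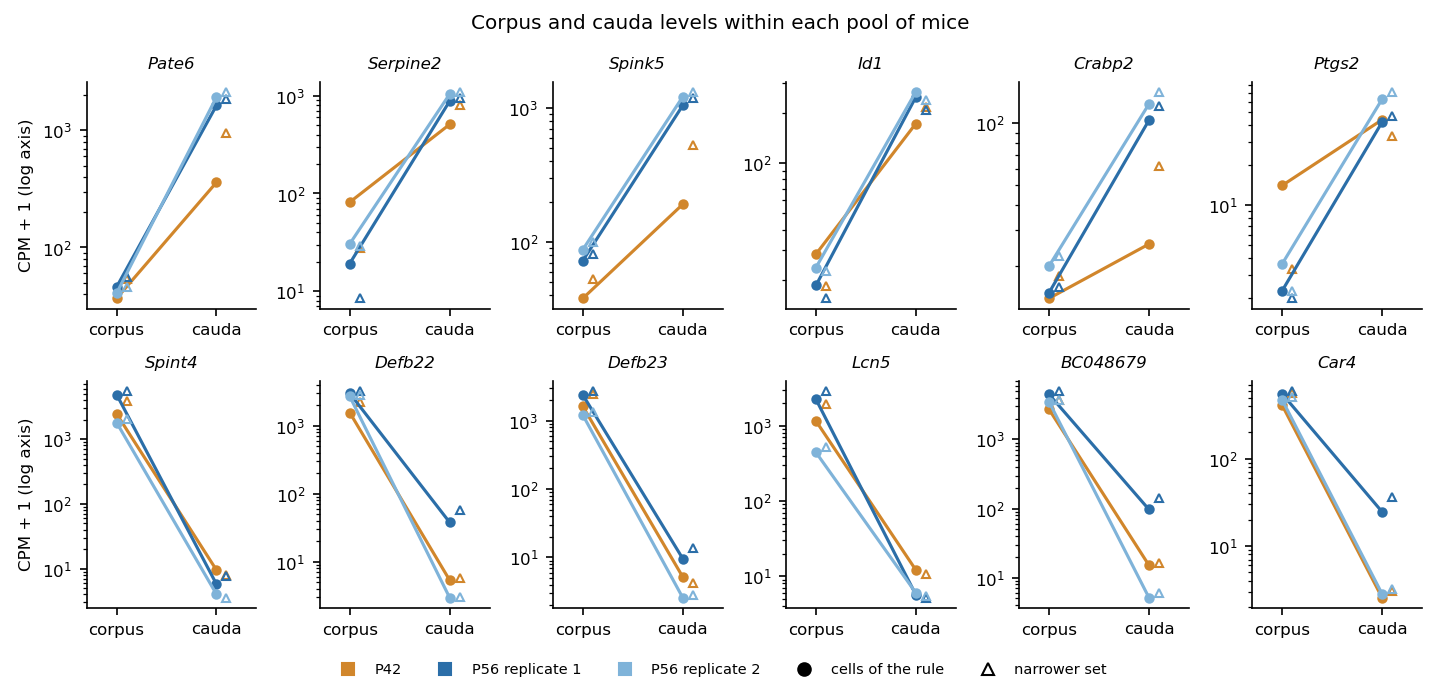
Levels of 6 genes called higher and 6 called lower in the cauda (CPM + 1, log axis) in the corpus and cauda members of each pool, joined by lines, with the narrower set as triangles. All 3 pools move the same way for each gene, which was a condition for naming the genes with the largest changes. Defb22, BC048679 and Car4 stay highest in the cauda of P56 replicate 1.

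The gene families of principal cells were split between the segments, against the same shares of 2.95% and 5.89% over all genes. Of 34 beta-defensins, 3 were higher in the cauda, 14 were lower and 17 were not called (median log2 fold change -1.45). The 3 were Defb9, which is a marker, Defb2 (2565, 9352 and 8321 CPM against 1487 to 1771 CPM, 2.08 ± 0.49) and Defb10 (78.7, 279 and 252 CPM against 57.4 to 60.9 CPM, 1.76 ± 0.41), and for both the excess was smaller at P42 than at P56. Of 16 Kazal and Kunitz inhibitors 2 were higher (Spink5 and the marker Spink14) and 6 lower, and of 18 WAP domain inhibitors 2 were higher (Wfdc3 and Wfdc6b) and 3 lower. In the narrower set 5.94% of all genes were higher and 6.76% lower. There beta-defensins were higher in 5 and lower in 16 of 34 cases, Kazal and Kunitz inhibitors in 4 and 6 of 15, and WAP domain inhibitors in 5 and 5 of 18. Wfdc13 had 5134, 7407 and 5595 CPM in the corpus and 137, 588 and 355 CPM in the cauda (-4.15 ± 0.44, edgeR adjusted p = 0.00383). Of 12 lipocalins, Lcn12 (1.80 ± 0.45) and Apod (1.61 ± 0.38) were higher and Lcn5 was lower. Apod was also among the leading genes of clusters of cauda members with fibroblast or smooth muscle markers. Of 19 Crisp and sperm surface proteins only Pate6 was higher and 7 were lower, among them Rnase9 (-4.09 ± 0.52) and Bsph2 (-3.25 ± 0.54), a binder of sperm protein.

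Of 32 ion and water transport genes 2 were higher and 5 lower, set against 2.95% higher and 5.89% lower among all genes tested, while in the narrower set 6 were higher and 5 lower of 29. Of 55 nuclear genes of the respiratory chain only Cycs (cytochrome c) was called, with 116, 226 and 225 CPM against 468, 603 and 556 CPM (-1.46 ± 0.25, edgeR adjusted p = 0.0153). Of 25 epithelial transcription factors, Gata2 (2.88 ± 0.22) and Nr2f2 (1.05 ± 0.22) were higher and Pax8 (-1.52 ± 0.26) was lower. Gata2 and Nr2f2 had their highest cauda levels at P42 (77.4 and 225 CPM, against 14.2 to 41.7 CPM at P56), the library with the most fibroblast mRNA, while the narrower set gave log2 fold changes of 4.33 and 1.57. Of 31 immediate early and heat shock genes, 5 were higher and none lower, including Id1, given above, Nr4a1 (1.54 ± 0.29), Myc (1.36 ± 0.15) and Dusp1 (1.31 ± 0.18). Of 26 interferon and MHC genes, 8 were higher and none lower (median log2 fold change 0.90), with H2-Q4 at 1.38 ± 0.22 and Psmb9, a subunit of the immunoproteasome, at 1.35 ± 0.24. Of 13 steroid receptors and metabolic enzymes, 2 were lower, among them Srd5a1, a steroid 5-alpha reductase (-2.35 ± 0.33).

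The median share of mitochondrial UMIs was 12.5%, 16.6% and 13.6% in the cauda members and 14.6%, 18.2% and 24.2% in the corpus members at P42, P56 replicate 1 and P56 replicate 2. The mean difference was -4.80 points (SD 5.06, n = 3 pools). It was negative in all 3 pools, with an exact two-sided permutation p of 0.25, the smallest that 3 pools allow. The narrower set gave -4.20 points (exact permutation p = 0.5), with 0.193 points at P42.

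From caput to cauda the difference was larger. The same model called 3974 of 17139 genes (23.2%), of which 1764 (10.3%) were higher and 2210 (12.9%) lower in the cauda, and in the narrower set 4169 of 14991 (27.8%), with 3006 called in both. This comparison shares its cauda libraries with the previous one. Ltf, which encodes the iron-binding protein lactoferrin, had 174, 502 and 523 CPM in the cauda and 0.327 to 1.16 CPM in the caput (log2 fold change 9.18 ± 0.71, edgeR adjusted p = 0.000231). Ly6f had 684, 2340 and 2961 CPM against 3.09 to 7.48 CPM (8.70 ± 0.60), and Cwh43, which acts on the lipid of membrane anchors, had 126, 384 and 447 CPM against 0.748 to 2.42 CPM (8.09 ± 0.49). Npy, a neuropeptide, had 366, 1789 and 1958 CPM against 11.2 to 16.3 CPM (6.61 ± 0.58), and Cd52 had 10689, 44527 and 44456 CPM against 407 to 914 CPM (5.67 ± 0.52). Each of these cauda genes was already far above the caput at P42. The corpus members, which were not part of this contrast, held 256, 228 and 434 CPM of Ltf and 10466 to 21121 CPM of Cd52.

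The beta-defensins exchanged members along the duct. Of 34 tested, 12 (the marker Defb9 counted) were higher in the cauda and 19 lower than in the caput, with 3 not called. Among the higher were Defb40 (729, 1781 and 1415 CPM against 4.47 to 8.93 CPM, 7.91 ± 0.38), Defb43 (7.19 ± 0.46), Defb11 (6.57 ± 0.52) and Defb38 (6.57 ± 0.38), and the lowest was Defb47 (5465, 7140 and 3825 CPM in the caput and 12.8, 2.41 and 2.13 CPM in the cauda, -10.12 ± 0.73). Lipocalins fell in 8 of 12 cases and rose in 2, the marker Ptgds counted (median log2 fold change -8.16 against 0.03 over all genes), with Lcn8 at 12912, 20050 and 20080 CPM in the caput and 37.2, 10.3 and 11.3 CPM in the cauda (-9.91 ± 0.70) and Lcn10 at -10.06 ± 0.46. Clpsl2, a colipase-like protein (-10.37 ± 0.70), the Ly6 family members Ly6g5c (-10.61 ± 0.67) and Ly6g5b (-10.10 ± 0.72), Gm5916 (-10.32 ± 0.38) and Teddm1a (-10.27 ± 0.74) were the other genes at the low end. Gpx5, the secreted glutathione peroxidase of the caput, had 38904, 78719 and 72882 CPM in the caput and 220, 350 and 342 CPM in the cauda (-7.48 ± 0.72, edgeR adjusted p = 0.000554), whereas Gpx3 rose from 121 to 244 CPM to 4384 to 10292 CPM (5.44 ± 0.54, edgeR adjusted p = 0.00062).

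The protease inhibitors were mixed, set against 10.3% of all genes higher and 12.9% lower. Kazal and Kunitz inhibitors were higher in 6 (among them the marker Spink14 and Spink8, a gene of the rule) and lower in 6 of 16 cases, WAP domain inhibitors higher in 7 and lower in 2 of 18, and serpins higher in 8 and lower in 1 of 13. Spint3 (5.10 ± 0.58), Wfdc16 (5.82 ± 0.71), Serpina16 (5.95 ± 0.55) and the sperm protein Pate1 (6.24 ± 0.42) were among the higher. The proton exchanger Slc9a3 had 5.76, 8.73 and 12.7 CPM in the cauda and at most 0.716 CPM in the caput (5.31 ± 0.78, edgeR adjusted p = 0.00301). In the narrower set its value was 8.43 ± 0.48, so the size of the fold rested on few caput UMIs. Of 23 retinoid and prostaglandin genes 9 were higher and 1 lower, with Crabp2 at 7.47 ± 0.64 and Ptgs2 at 5.24 ± 0.72. Immediate early and heat shock genes were called higher in 24 of 31 cases and lower in 1 (median log2 fold change 1.79), among them Id1 (3.97 ± 0.69), Atf3 (1531, 2339 and 2439 CPM against 460, 89.4 and 72.9 CPM, 3.77 ± 0.88) and Fosb (3.29 ± 0.75). In the narrower set 20 of 31 were higher and 1 lower. Klf4, a factor of the epithelial list, was also higher (3.27 ± 0.32). Etv4, an ETS factor, was at 11.8 to 22.9 CPM in the caput and at most 0.105 CPM in the cauda, too few UMIs for a fold. Of 9 mitochondrial mRNAs 6 were higher, with mt-Nd6 at 3335, 4566 and 4473 CPM against 1618, 1738 and 2158 CPM (1.35 ± 0.26, edgeR adjusted p = 0.00847).

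Cauda members were next compared between the ages, P56 replicates 1 and 2 against the single P42 library (edgeR, 1 mean per segment and age, with the P42 library assumed to vary like the P56 libraries). Each pool had 1 age, so the pool could not be a block here, and the test took the libraries of 1 pool as independent. The fitted fold changes include the scaling factors between libraries, 1.31 for the P42 cauda members and 0.787 and 0.809 for those at P56. For genes higher at P56 they therefore exceed the log2 ratios of the CPM. In the cells of the rule 5752 of 17139 genes (33.6%) were called, 2346 higher (13.7%) and 3406 lower (19.9%) at P56, and 822 were higher and 6135 lower when the scaling factors between libraries were set to 1. In the narrower set 2056 of 14991 (13.7%) were called, 783 higher (5.22%) and 1273 lower (8.49%), and 1758 were called in both (30.6% and 85.5%). The genes lowest at P56 were those of stroma and leukocytes. Col1a1 had 10440, 138 and 57.0 CPM (log2 fold change -6.02 ± 0.56), the collagen Col6a5 had 1269, 16.3 and 5.62 CPM (-6.14 ± 0.72), Retnla, a macrophage product, had 1293, 12.3 and 9.63 CPM (-6.17 ± 0.55), and the monocyte receptor Ccr2 had 103, 0.893 and 1.21 CPM (-5.89 ± 0.42). Col1a1 still had 2709, 32.1 and 22.97 CPM in the narrower set, so that mRNA of fibroblasts was not removed from the P42 library by leaving out cells. P42 and its stromal content cannot be told apart in these data. The narrower sets of the ages also came from different subgroups of cells, which are described further on. Of the 643 cells at P42, 599 lay in the subgroup led by globins and sperm genes, and 7 lay in the largest subgroup. The largest subgroup held 1259 of 1819 and 1366 of 1930 cells at P56. Within P42 the subgroup led by globins and sperm genes also held more Defb9 than the other members (1113 against 140 CPM).

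Several genes of the epithelium were higher at P56 in both sets. Spink14 rose by 6.06 ± 0.55 on the log2 scale in the cells of the rule and by 4.61 in the narrower set. Ptgds rose by 3.54 ± 0.37 and 2.23. Smpx and Defb9 were called in the cells of the rule (2.29 ± 0.77 and 2.13 ± 0.34) but not in the narrower set (0.99 and 0.72). These 4 markers were picked with these data in view, so their changes are a description only. Elf3, an epithelial ETS factor, had 17.2, 153 and 201 CPM in the members and 41.9, 171 and 213 CPM in the narrower set (4.08 ± 0.37 and 2.85). Cldn4, a claudin of tight junctions, had 34.4, 289 and 389 CPM and 59.4, 214 and 352 CPM (4.01 ± 0.41 and 2.90), and Mmp7, a matrix metalloproteinase that processes defensins, had 21.6, 181 and 165 CPM and 55.4, 195 and 175 CPM (3.72 ± 0.32 and 2.40). Ceacam10 (3.43 ± 0.34 and 2.16), AY761185 (3.72 ± 0.44 and 2.51), the ribonuclease family member Rnase9 (3.47 ± 0.40 and 2.62) and the crystallin Cryba4 (3.35 ± 0.32 and 2.00) went the same way. For the genes named from Elf3 on the P42 value lay below both P56 values in either set. In the members this was a condition for naming the genes with the largest changes, and the narrower set is part of the same cells. It is thus no separate evidence.

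**Figure D4:**
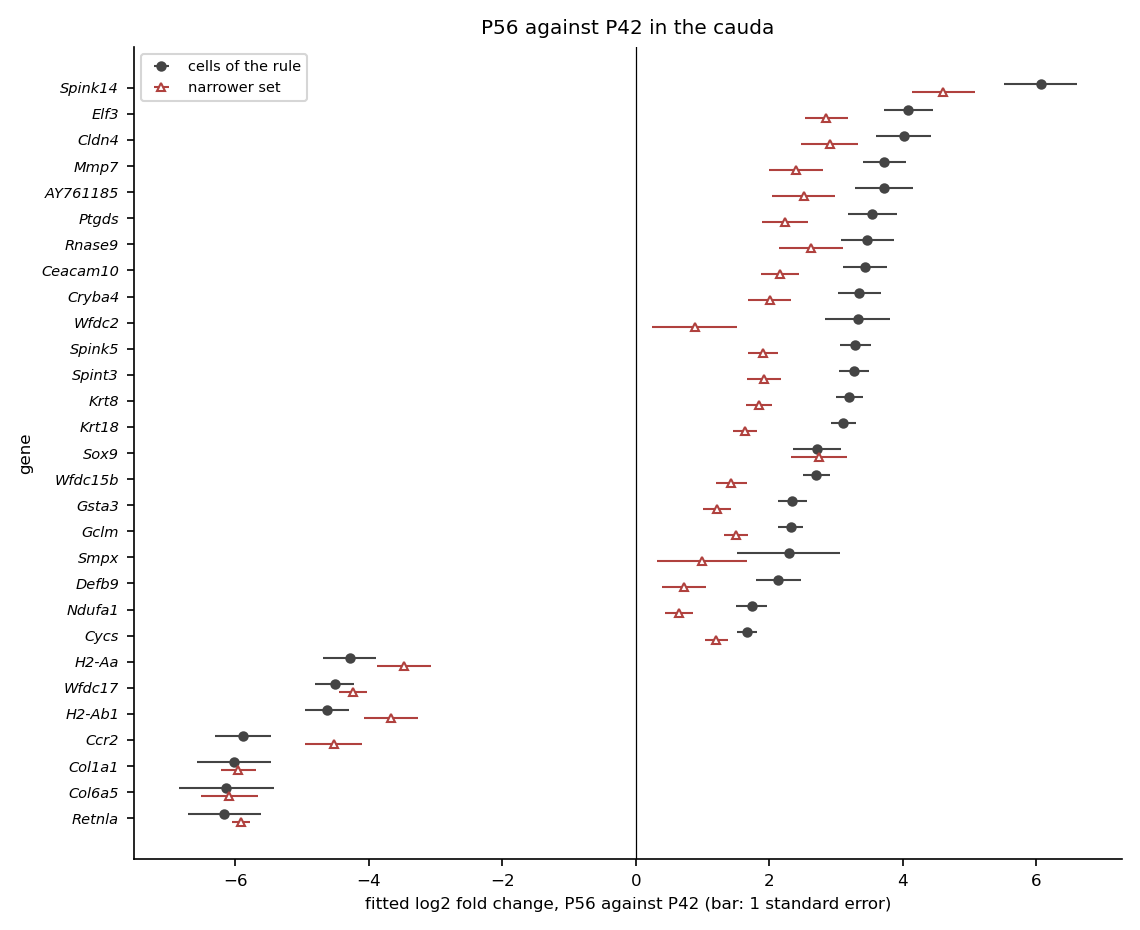
Log2 fold change from P42 to P56 of the named genes in the cauda cells of the rule (circles) and in the narrower set (triangles), with bars of 1 SE. The increases of most epithelial genes are smaller in the narrower set, with Ptgds at 3.54 and 2.23 and Defb9 at 2.13 and 0.72.

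How many members of a family were called depended on the cells taken, and the shares of all genes called higher and lower were 13.7% and 19.9% in the cells of the rule and 5.22% and 8.49% in the narrower set. Beta-defensins were higher at P56 in 16 (Defb9 among them) and lower in 3 of 34 cases in the cells of the rule, and in 5 and 2 of 34 in the narrower set. Kazal and Kunitz inhibitors were higher in 11 of 16 and in 8 of 15 cases and never called lower, with the marker Spink14 and the rule gene Spink8 counted, and with Spink5 (3.29 ± 0.24 and 1.90) and Spint3 (3.26 ± 0.22 and 1.92) in both. WAP domain inhibitors were higher in 14 and lower in 3 of 18, and in 5 and 3 of 18 in the narrower set, both counting the rule gene Wfdc10, and there Wfdc15b was called (1.43) and Wfdc2 was not (0.88, edgeR adjusted p = 0.368). Wfdc17, a leukocyte gene, was lower in both (-4.51 ± 0.30 and -4.23). Crisp and sperm surface proteins were higher in 12 and lower in 3 of 19, and in 9 and 3 of 19 in the narrower set, with Crisp1 and Adam7 of the rule among the higher. Antioxidant enzymes were higher in 17 and lower in 3 of 26, and in 11 and 2 of 26 in the narrower set, among them Gclm, a subunit of the enzyme that starts glutathione synthesis (2.32 ± 0.19 and 1.50), and Gsta3 (2.34 ± 0.21 and 1.21). With the scaling factors between libraries set to 1 the antioxidant enzymes of the members were higher in 10 and lower in 4 cases.

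Other families were split between the directions, set against the same shares of all genes. These were 13.7% higher and 19.9% lower in the cells of the rule, and 5.22% and 8.49% in the narrower set. Serpins were higher in 5 and lower in 8 of 13 cases (3 and 7 of 13 in the narrower set), lipocalins higher in 3, the marker Ptgds counted, and lower in 5 of 12 (1, which was Ptgds, and 6 of 11, among them Lcn8 and Lcn9) and Hox genes higher in 7 and lower in 11 of 25 (2 and 4 of 21). In the narrower set at P42, 109 of the 643 cells formed a cluster led by the caput genes Lcn9, Cst8, Lcn8 and Gpx5, and Lcn8 had 77.4, 8.65 and 11.2 CPM in that set. Retinoid and prostaglandin genes were higher in 6 and lower in 7 of 23 cases (6 and 4 of 21), and epithelial transcription factors higher in 9 and lower in 8 of 25 (4 and 3 of 24, and 5 and 8 of 25 among the members with the factors set to 1). Ion and water transport genes were higher in 16 and lower in 5 of 32 cases, but higher in 5 and lower in 9 with the scaling factors set to 1. In the narrower set 2 were higher and 2 lower of 29 (6.90% each), near the shares of all genes. Immediate early and heat shock genes were higher in 6 and lower in 8 of 31 cases, but higher in 9 and lower in 2 in the narrower set, and higher in 1 and lower in 18 with the factors set to 1.

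The same shares of all genes, 13.7% higher and 19.9% lower in the cells of the rule and 5.22% and 8.49% in the narrower set, apply to the next lists. Of 55 nuclear genes of the respiratory chain, 33 were higher at P56 and none lower in the cells of the rule, but 5 in the narrower set, and 1 when the scaling factors between libraries were set to 1, which put the median log2 fold change of all genes at -0.77. Cycs was called in both sets (1.67 ± 0.15 and 1.21). Its log2 ratios of CPM to P42 were smaller, 0.951 and 0.945 in the members and 0.581 and 0.501 in the narrower set. Ndufa1 was not called in the narrower set (0.65). Junction proteins and keratins of epithelia were higher in 17 and lower in 1 of 25 cases, and in 11 and 1 of 23 in the narrower set, with Krt8 (3.20 ± 0.21 and 1.85) and Krt18 (3.11 ± 0.19 and 1.64). Sox9, an epithelial transcription factor, rose in both (37.7, 109 and 192 CPM in the members, 2.71 ± 0.36 and 2.74). Of 26 interferon and MHC genes, 4 were higher and 11 lower, and in the narrower set 3 and 7. MHC class II genes were among the lower, with H2-Ab1 at 510, 9.08 and 16.1 CPM (-4.63 ± 0.33) and H2-Aa at 787, 17.3 and 31.9 CPM (-4.29 ± 0.40), beside the macrophage markers given above.

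The age effect was also compared between cauda and corpus, as the difference of the 2 age effects in edgeR with the pool as a block. In the cells of the rule 1621 genes differed (9.46%), 697 with a higher change in the cauda (4.07%) and 924 with a lower one (5.39%), against 599 and 509 with DESeq2 and 393 and 880 with the scaling factors set to 1, and in the narrower set 388 (2.59%), 125 higher (0.834%) and 263 lower (1.75%). Epithelial junction proteins and keratins were higher in 15 of 25 cases and never called lower, and in 7 of 23 in the narrower set, with Cldn4 and Krt19 in both. Kazal and Kunitz inhibitors were higher in 7 of 16 cases (Spink8 of the rule among them), and none of 15 was called in the narrower set. The corpus and cauda of the P42 pool were 1 library each.

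Clustering of the 9589 members together gave 10 subgroups, which describe the cells and are given without tests. The largest, of 3111 cells, held 1.94% of the members at P42, 42.5% in P56 replicate 1 and 47.4% in P56 replicate 2. It was led by the seminal vesicle gene Svs2, Spint3, Pate2, Ptgds and Npy, and its leading genes stood little above the other members. Ptgds had 12897 and 13007 CPM in the subgroup at P56 and 8877 and 10164 CPM in the other members, and Spint3 had 2726 and 2602 CPM against 1889 and 1914 CPM. Svs2 had 52.0 CPM in P56 replicate 2 and 2.12 CPM in P56 replicate 1, so that it marked 1 library.

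A subgroup of 807 cells was found only in the P56 libraries, with 375 and 432 cells (10.6% and 13.1% of the members). It was led by the small proline-rich proteins Sprr1a and Sprr2f, the sphingomyelin synthase Sgms2, the antioxidant enzyme Srxn1 and the granulocyte growth factor Csf3. Sprr1a had 164 and 341 CPM in the subgroup and 32.9 and 55.1 CPM in the other members, Sgms2 had 245 and 258 CPM against 51.0 and 50.4 CPM, and Srxn1 had 331 and 423 CPM against 78.1 and 109 CPM. Ptgs2 was also high there, with 128 and 175 CPM against 27.7 and 41.6 CPM. The 4 cauda markers were at similar or slightly higher levels than elsewhere, with Spink14 at 467 and 365 CPM against 304 and 315 CPM, and 761 of the 807 cells belonged to the narrower set. Their median depth of 8559 UMIs was the highest of all subgroups.

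A subgroup of 191 cells carried genes that were called lower in the cauda than in the corpus. The caput shared some of them, with BC048679 and Defb23 among the leading genes of a cluster of caput members in every pool. It lay almost entirely in P56 replicate 1 (179 cells, against 12 in P56 replicate 2 and 0 at P42), and 190 of its cells were in the narrower set. BC048679 had 1285 CPM in these cells and 33.4 CPM in the other members of that library, Defb22 had 538 against 10.8 CPM, Car4 had 306 against 8.82 CPM, Bsph2 had 1961 against 247 CPM, Wfdc13 had 3407 against 441 CPM, Spint5 had 168 against 0.940 CPM and Defb23 had 132 against 2.17 CPM. Spink14 (62.2 against 340 CPM) and Smpx (46.7 against 218 CPM) were lower there, and Ptgds (10124 against 10675 CPM) was similar. In the corpus members of the same pool BC048679 had 4476 CPM and Defb22 had 2998 CPM. Bsph2 and Wfdc13 also led a cluster of 290 narrower-set cells of P56 replicate 2, clustered by itself. Lcn5 and Defb30, called lower in the cauda than in the corpus and the caput, were among the leading genes of a P42 cluster of 74 cells with clear cell markers. Whether the cells of the subgroup came from the corpus or the caput was not tested.

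**Figure D5:**
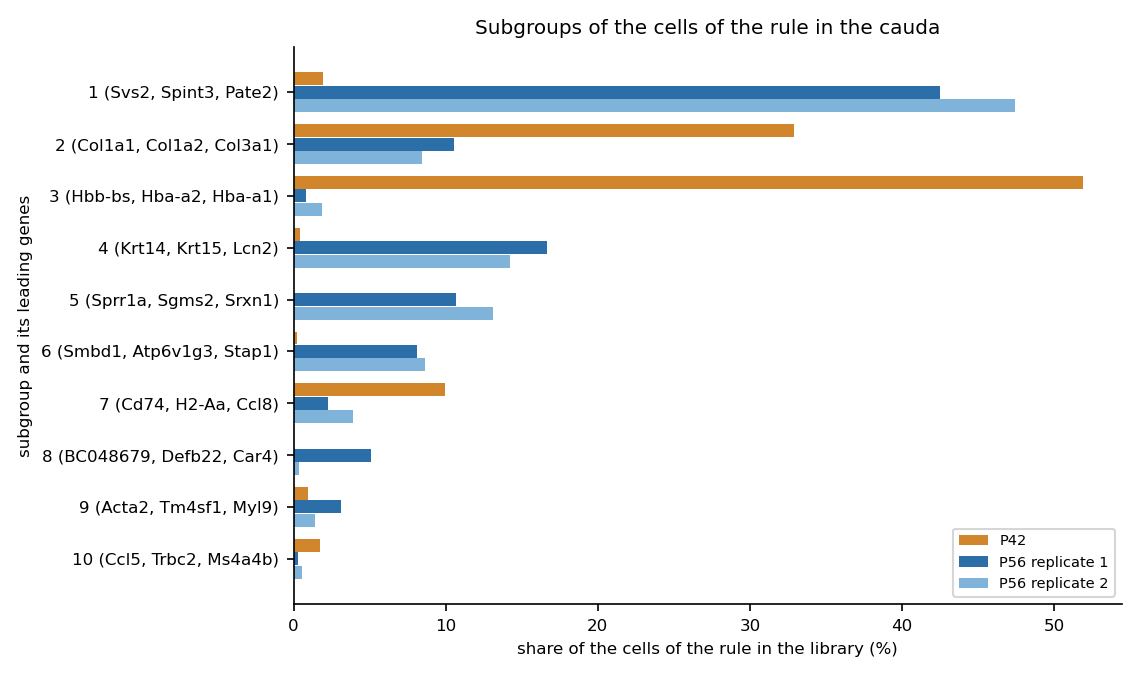
Share of the members of each cauda library in the 10 subgroups (percent, grouped bars), with 3 leading genes of each. The subgroup led by Sprr1a holds 0, 10.6 and 13.1% of the members at P42, P56 replicate 1 and P56 replicate 2, and the subgroup led by BC048679 lies almost only in P56 replicate 1.

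The other 7 subgroups were led by genes of other cells. A subgroup of 1564 cells (914 of them at P42) was led by collagens and Dcn, and 64 of its cells were in the narrower set. A subgroup of 1531 cells, 1441 of them at P42 (51.9% of the members there) and with a median of 1528 UMIs, was led by globins, Prm2 and Smcp, the latter 2 being sperm genes. It also held most cells of the narrower set at P42 (599 of 643) and the cauda markers. Within P42 Defb9 had 1113 CPM against 140 CPM in the other members, Smpx 179 against 30.2 CPM and Ptgds 3419 against 505 CPM. The globin Hbb-bs differed less there, with 3990 against 2348 CPM, while Prm2 had 318 against 25.0 CPM. Those with 1065, 574, 485, 182 and 79 cells were led by Krt14 and Krt15 of basal cells, Atp6v1g3 and Stap1 of clear cells, Cd74 and H2-Aa of macrophages, Acta2 and Myl9 of smooth muscle, and Ccl5 and Trbc2 of T cells. The subgroup of 182 cells also carried endothelial markers, with a median log2 ratio of 1.61 for that list and 1.46 for the smooth muscle list.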

How the data were processed

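Single-cell suspensions of caput, corpus and cauda of 3 pools of mice were captured on a microfluidic chip. Reads were mapped with STAR 2.7.3a to GRCm38.p6 and counted with UMI-tools, according to the submitters' processing notes, and the authors deposited raw UMI counts per gene and barcode without normalization. All values were whole numbers, 0 columns of other samples were present, and columns were matched to samples by segment and, through the study's sample sheet, by age and replicate. The 3 cauda libraries held 23114756, 37510958 and 42919331 UMIs, of which the cells of the rule held 9555762, 25762990 and 27215683. Depth sets the precision of low levels, and P42 was the shallowest.

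UMIs were summed over the cells of the rule per library and compared with edgeR 4.0.16 (R 4.3.3; filterByExpr, TMM, quasi-likelihood F test, Benjamini-Hochberg adjustment); SE was taken from the fold change and its F. The pool of mice was a block wherever segments were compared, since each pool gave all 3 segments. Deviations from segment means correlated over 0.1 in 9 of 9 pairs of libraries from 1 pool (0.18 to 0.72). Of 18 pairs from different pools 4 did, all between the 2 P56 pools (0.233 to 0.514). Deviations of the 3 libraries of a segment sum to 0, and age goes with the pool. The contrast is therefore partly fixed and does not separate pool from age. P-values measure the spread between libraries of pooled mice. Levels are given as CPM of the summed UMIs without the scaling factors between libraries, which the fitted fold changes include. In simulated counts with 200 of 17139 genes changed 4-fold, 142 were called between cauda and corpus, 133 between cauda and caput, 128 between ages and 101 for the difference between age effects, and at 2-fold 0, 0, 0 and 15. In the same order 1, 16, 4 and 8 unchanged genes had an adjusted p under 0.05 beside the 4-fold changes. Beside the 2-fold changes these were 0, 0, 0 and 16. The simulated libraries shared 1 mean profile, without other differences of segment, age or cell mixture. These counts are therefore not error rates of the real comparisons.

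Clusters were made with scanpy 1.11.5 and the Leiden method of igraph 0.11.9 (2000 variable genes, 30 principal components, 15 neighbours, resolution 0.3 for subgroups and 0.6 within libraries). A cluster was left out of the narrower set when another cell type's marker list had a median log2 ratio of at least 0.5 or at least 2 genes among the top 30. The members, gene lists and marker lists were chosen with earlier results of these data known. Genes named were the 4 markers, the 10 highest and 10 lowest called genes that moved the same way in every pool with at least 100 CPM in the higher group, up to 4 called and 2 abundant members per list, and the first 5 genes per subgroup. Alternatives were DESeq2 1.42.0, other filters, scaling, blocks and cell limits, cells without the 5% highest Scrublet scores, thinned cells, and each library left out. The results for some further genes are not reported here. Figures were drawn with matplotlib 3.10.9.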

Additional observations from a re-analysis of the deposited data

Results flagged for a closer look

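The change from P42 to P56 differed between cauda and corpus for 1621 of 17139 genes (edgeR quasi-likelihood F test of the difference between the age effects, with the pool as a block, 9.46% of the genes tested, 697 higher and 924 lower in the cauda, against 599 and 509 with DESeq2 and 393 and 880 with scaling factors set to 1). In the narrower set 388 of 14991 genes (2.59%) were called, and 325 were called in both. The fibroblast and macrophage markers that set the P42 cauda apart, given above, move with these values, as do basal cell markers, with 64.9, 207 and 178 CPM in the cauda members and 149, 74.3 and 82.7 CPM in the corpus members (53.7, 65.0 and 77.8 CPM and 69.8, 45.2 and 43.0 CPM in the narrower set). The part of these cells was not tested.

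For several epithelial genes the change was more positive in the cauda. The difference, cauda minus corpus, was 4.11 ± 0.41 (log2, SE) for Cryba4, which had 34.7, 210 and 220 CPM in the cauda and 4.48, 2.48 and 1.16 CPM in the corpus, 3.21 ± 0.45 for Cldn4 and 3.07 ± 0.31 for Sox9. Krt19, a keratin of simple epithelia, had a difference of 2.91 ± 0.27, Hacd4 of 2.92 ± 0.28 and the iron-carrier-binding lipocalin Lcn2 of 2.88 ± 0.28. For these 3 genes the corpus level was lower at P56 than at P42, with 41.6, 16.4 and 11.6 CPM of Krt19. Lcn2 was among the leading genes of the subgroup with basal cell markers, and Cldn4 and Gsta4 were among those of corpus clusters with basal cell markers. For Pate6 the difference was 2.22 ± 0.30, for the glutathione enzymes Gsta4 and Gclm it was 2.01 ± 0.22 and 1.98 ± 0.24. All of these were also called in the narrower set, where the difference was smaller for each but Gsta4 (2.12). It was 3.38 for Cryba4, 2.61 for Cldn4, 2.30 for Sox9 and 2.16 for Krt19. For Hacd4, Lcn2, Pate6 and Gclm it was 2.65, 1.64, 1.37 and 1.43.

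For a further group the call was lost in the narrower set. The difference was 3.70 ± 0.39 for Mmp7, 2.83 ± 0.32 for Serpine2, 2.01 ± 0.25 for Crabp2, 1.63 ± 0.40 for Ptgds and 1.49 ± 0.36 for Defb9, and in the narrower set it was 2.65, 1.30, 1.24, 0.87 and 0.55, with edgeR adjusted p of 0.0775, 0.314, 0.0585, 0.276 and 0.506. Ptgds and Defb9 are markers picked with these data in view, so their differences are a description only. Fcgr2b, an Fc receptor of leukocytes (-4.27 ± 0.25), and Col6a5 (-4.03 ± 0.25) decreased more in the cauda in both sets.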

How the results depend on the processing

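Limits are the mixture of cell types among the cells of the rule, the single P42 library and principal-cell mRNA in nearly all barcodes. Between cauda and corpus 1516 genes were called, and 2441 without a filter on low counts, 991 in cells with none of the excluded genes, 596 after thinning to 1000 UMIs and 819 with no replicate block, and between 19 and 3091 when 1 pool was left out. Between cauda and caput 3974 were called, 2189 after thinning and between 1083 (without P56 replicate 1) and 5469 when 1 pool was left out, with 1702 without P56 replicate 2. Between the ages 5752 were called, 2894 without excluded genes, 3333 after thinning, 2856 in cells with under 0.5% collagen mRNA, 2056 in the narrower set and 4992 to 5362 without 1 library. For the difference between age effects the count of 1621 became 2669 without the filter, 485 without excluded genes, 567 after thinning, 598 with little collagen mRNA, 388 in the narrower set, 845 with no replicate block and 770 to 1097 without 1 library (770 without the cauda of P56 replicate 2). The P42 pool could not be left out of the age comparisons. The cause of these changes was not tested. Between cauda and caput 3133 genes were called with no replicate block, a count within 1.5 times of that with it.

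With scaling factors set to 1, 822 genes were higher and 6135 lower at P56, against 2346 and 3406, and 393 and 880 for the difference between age effects, against 697 and 924, where DESeq2 gave 599 and 509. That scaling put the median log2 fold change of all genes at -0.15 between cauda and caput and at -0.21 for the difference between age effects. The median share of members was 67.5%, 19.2% without excluded genes, 37.4% in the narrower set and 64.0 to 70.0% without 1 library. The difference in mitochondrial UMIs ranged from -6.37 to -1.87 points without 1 pool. A resolution of 0.15 gave 5 subgroups and 0.6 gave 16, against 10. Over the 126 values of named genes, none changed direction in any alternative run. Many of these genes were named because they were called in the full data, and the alternatives reused the same libraries. A constant direction was thus largely fixed beforehand and is no separate evidence. The tallies below pool all comparisons and do not show where calls were lost. Between cauda and corpus 19 genes in all were called without P56 replicate 1, 58 without P56 replicate 2 and 3091 without P42. With 1 library or pool left out 241 values kept their side of the threshold, 91 lost the call and 1 gained it, and under the other alternatives 1581 kept it, 54 lost the call and 1 gained it.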
